A study of Mus musculus with 6 samples.

Results

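The nuclear genes of respiratory complexes III, IV and V were described in RNA of GL261, an established mouse glioma line. Members were all genes whose name begins with Uqcr, is Cyc1, begins with Cox followed by a digit from 4 to 8, or begins with Atp5, with pseudogene names ending in -ps left out. The rule matched 45 names and 46 of 58335 genes, because Atp5o is carried by 2 gene identifiers. Complex III had 9 members, complex IV 19 and complex V 18. The cells had received 1 uM sodium chloride (chloride 1, 2 and 3) or 1 uM sodium propionate (propionate 1, 4 and 5), and total RNA was taken 4 h later in every library. The dose is that of the labels, and its unit could not be checked. Both groups were the same unmodified line, and the labels name no genotype, clone or passage. Propionate is a fatty acid of short chain that gut bacteria release, and sodium chloride supplied the same cation. The study examined transcriptional changes after propionate. Nothing in the labels says whether the 3 libraries of a salt stem from separate cultures. The p-values therefore cover the spread of these samples alone, which may be technical.

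Complex III passes electrons from ubiquinol to cytochrome c, complex IV passes them on to oxygen, and complex V, the ATP synthase, uses the resulting proton gradient to make ATP. Each complex combines subunits imported from the cytosol, whose genes lie in the nucleus, with a few made inside the mitochondrion. Several complex IV subunits have alternative forms encoded by different genes, some known from heart, skeletal muscle, lung or testis, and the ring of c subunits that turns in the ATP synthase is encoded by several genes.

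All values below are transcripts per 1000000 transcripts (TPM) as estimated by StringTie, summed over the transcript models of a gene. They were divided by a factor per library of 0.966 to 1.09 that sets the median gene equal. TPM is a relative abundance per length, so levels of different genes can be set side by side. The libraries held 9.15 to 11.3 Gb of counted bases. Propionate 4 and 5 were the deepest, at 11.3 and 11.1 Gb, and the others held 9.15 to 9.47 Gb. Chloride 3 and propionate 1 stood apart: 71452 and 71192 transcript models had coverage in them, against 81178 to 82370 in the other 4 libraries. Some of the results that rest on this pair, but not all, are given without it as well. Of 10 glioma and neural progenitor markers, 9 had a mean of at least 1 TPM, led by Vim at 3122 TPM and Nes at 343 TPM. Olig2 at 1.51 TPM and Fabp7 at 1.39 TPM were only just above that level, and Gfap averaged 0.933 TPM. None of the lymphoid, endothelial, neuronal or testis germ cell markers reached 1 TPM, and of 8 myeloid markers Cd68 at 3.82 TPM and Csf1r at 1.56 TPM did. Of 10 striated muscle markers, Tnnt2 at 23.7 TPM and Acta1 at 8.80 TPM did.

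Sequence bears on the members' values because several families differ at few bases, and short reads must be divided between them. The genes Atp5g1, Atp5g2 and Atp5g3 encode the c subunit of the ATP synthase ring, with different leader peptides before a shared mature protein. Their coding sequences span chr11:96073104-96075025, chr15:102663014-102667749 and chr2:73908593-73910993 on the minus strand of mm10. Over the last 228 coding bases, which start with the mature protein, Atp5g2 was identical to Atp5g1 at 85.1% of positions and Atp5g3 at 79.8%. Of the 58 positions that differed among the 3 genes, 52 were at the third base of a codon, and the longest run identical in all 3 genes was 8 bases. The beginning of that stretch, 120 bases, is shown because it lets a reader see how the genes are told apart. Capitals mark the 29 positions that differ among the 3 genes.
Atp5g1: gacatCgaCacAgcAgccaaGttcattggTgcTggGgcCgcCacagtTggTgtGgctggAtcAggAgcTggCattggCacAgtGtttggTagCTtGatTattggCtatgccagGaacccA
Atp5g2: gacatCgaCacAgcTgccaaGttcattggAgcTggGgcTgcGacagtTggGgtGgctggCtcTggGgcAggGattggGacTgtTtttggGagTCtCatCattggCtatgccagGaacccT
Atp5g3: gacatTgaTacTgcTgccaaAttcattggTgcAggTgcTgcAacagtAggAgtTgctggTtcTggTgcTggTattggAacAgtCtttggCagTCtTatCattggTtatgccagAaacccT

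Cox6c and Cox6c2 form the opposite case, with far fewer differences. Cox6c encodes a small membrane subunit of complex IV, in a coding sequence spanning chr15:35935300-35937271 on the minus strand of mm10. Cox6c2 lies without introns at chr12:56373593-56373823 on the minus strand, and GENCODE M21 classes it as a processed pseudogene, a copy made from a spliced transcript. Over 231 bases the 2 sequences were identical at 97.0% of positions, and in both the first in-frame stop was at codon 77, so that the reading frame of the copy is as long as that of the gene. Both are printed whole, with the 7 positions that differ in capitals.
Cox6c: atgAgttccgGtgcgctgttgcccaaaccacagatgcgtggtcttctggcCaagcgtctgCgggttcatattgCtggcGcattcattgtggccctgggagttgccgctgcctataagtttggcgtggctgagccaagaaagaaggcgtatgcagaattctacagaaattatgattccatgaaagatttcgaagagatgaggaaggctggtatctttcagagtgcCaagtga
Cox6c2: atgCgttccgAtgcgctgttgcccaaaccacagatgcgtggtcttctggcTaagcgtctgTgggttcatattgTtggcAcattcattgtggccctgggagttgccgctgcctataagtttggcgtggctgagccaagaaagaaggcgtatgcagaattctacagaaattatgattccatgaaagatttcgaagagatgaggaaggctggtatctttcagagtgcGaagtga

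Of the 46 members, 39 had a mean of at least 1 TPM and were tested. These are not all members, and the other 7 are given with the tissue forms below. Within a complex, levels differed between subunits far more than between libraries. The 37 members over 50 TPM had a coefficient of variation over the 6 libraries of 2.93% to 14.3% (median 6.82%), while their means ran from 67.4 to 1127 TPM. The order of the 37 levels was similar in every pair of libraries, with a rank correlation of 0.922 to 0.991 over the 15 pairs. These points share the length and sequence of each transcript. Across the same members, the rank correlation of level with the length of the leading transcript, 362 to 2471 nt, was -0.31.

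In complex III the levels fell into separate ranges. Cyc1 (cytochrome c1), Uqcrfs1 (the Rieske iron-sulfur protein) and Uqcrc1 and Uqcrc2 (the core proteins) lay between 91.1 and 117 TPM in all 6 libraries. The small subunits Uqcrb, Uqcr10 and Uqcr11 and the hinge protein Uqcrh lay between 274 and 342 TPM. No value of either set fell in between. Uqcrq, the remaining small subunit, was the lowest, at 67.4 TPM over the 6 libraries, and Uqcr11 the highest, at 322 TPM, a ratio of 4.77. The ranges also went with transcript length. In GENCODE M21 the leading transcripts of Uqcrb, Uqcrh, Uqcr10 and Uqcr11 have 434 to 547 nt. Those of Cyc1, Uqcrfs1, Uqcrc1, Uqcrc2 and Uqcrq have 1363 to 1896 nt. The part of length in these levels was not tested. Cyc1, which carries the haem that reduces cytochrome c, had 105, 98.7 and 99.2 TPM in chloride 1, 2 and 3 and 111, 95.9 and 99.0 TPM in propionate 1, 4 and 5. Uqcrfs1 had 103, 109 and 103 TPM with chloride and 109, 117 and 112 TPM with propionate. Propionate 1 lay just under chloride 2, so the groups overlapped.

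In complex IV, Cox6c at 579 TPM was the highest and Cox5a, a subunit on the matrix side, at 152 TPM the lowest among the 11 members over 50 TPM, a ratio of 3.80. Cox6c had 557, 563 and 530 TPM with chloride and 512, 679 and 633 TPM with propionate, so the propionate libraries lay both below and above all chloride libraries. Cox4i1, the common form of subunit 4, had 611, 540.5 and 477 TPM with chloride and 553, 581 and 574 TPM with propionate, all within the range of the chloride values.

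In complex V, the catalytic beta subunit gene Atp5b was the highest of all members, at 1127 TPM, and Atp5d, the F1 delta subunit gene, the lowest, at 153 TPM, a ratio of 7.38. Atp5b had 1133, 1104 and 1073 TPM in chloride 1, 2 and 3 and 1162, 1142 and 1149 TPM in propionate 1, 4 and 5. It had the smallest spread of any tested member, 2.93%. Atp5a1, the F1 alpha subunit gene, had 639, 696 and 613 TPM with chloride and 678, 710.1 and 654 TPM with propionate, and Atp5c1, the gamma subunit of the rotating stalk, had 390.3, 405 and 357 TPM with chloride and 377, 451 and 413 TPM with propionate. In both genes the groups overlapped. The median level was 109 TPM in complex III, 291 TPM over the 11 members of complex IV and 297 TPM in complex V. The plot of levels by library shows the separate ranges of complex III and the rank of Atp5b.

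**Figure D1:**
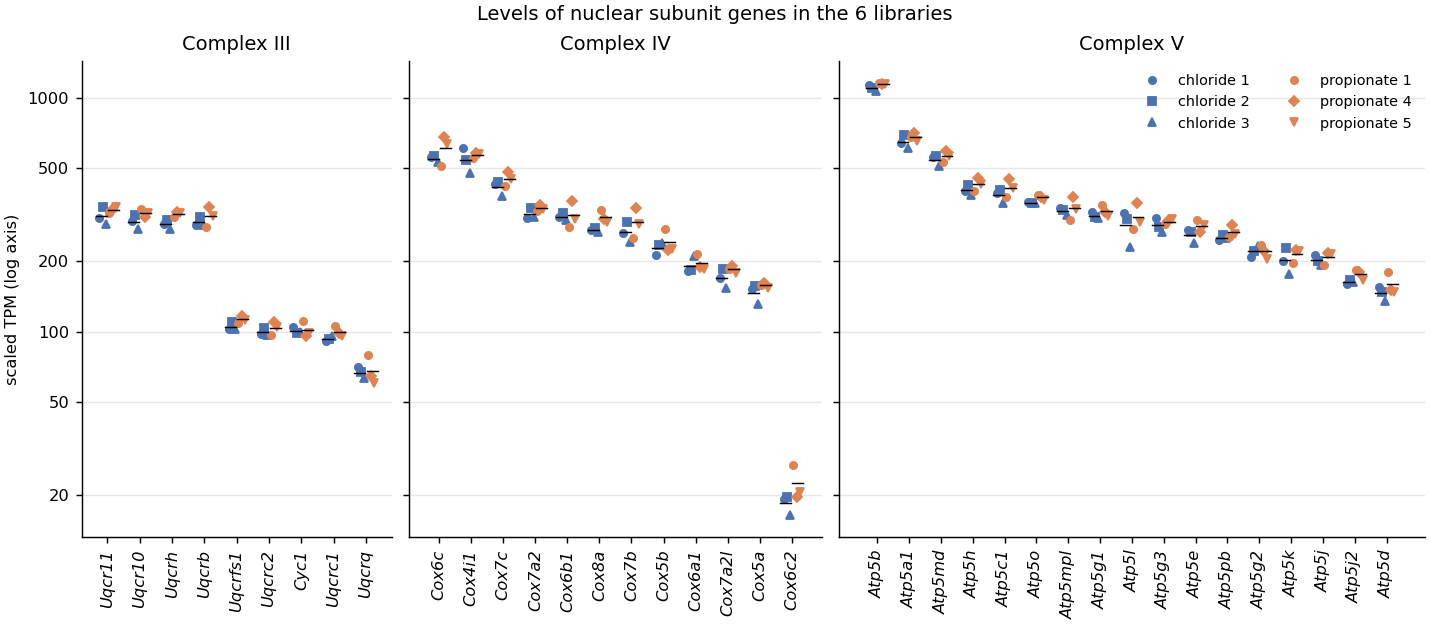
Scaled TPM (log axis) of the 38 members with a mean over 10 TPM, by complex and in descending order of mean. Each point is 1 library, blue for chloride and orange for propionate, and short lines mark the mean of each group of 3. Atp5b lies highest at 1127 TPM and Cox6c2 lowest at 20.4 TPM, and in complex III 4 genes lie between 274 and 342 TPM and 4 between 91.1 and 117 TPM.

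Alternative forms of complex IV subunits were unequal by orders of magnitude. Cox4i1 gave at least 99.9% of the summed TPM of the subunit 4 genes in each library. Cox4i2, the form known from lung, was listed at 0 in chloride 1 and 2 and had 0.387 TPM in chloride 3 and 0.210, 0.151 and 0.168 TPM in propionate 1, 4 and 5. Cox6a1, the form known from liver, had 181, 183 and 210.4 TPM with chloride and 215, 189 and 186 TPM with propionate. Its heart form Cox6a2 reached at most 0.325 TPM and was listed at 0 in propionate 1. Cox6b1 had 309.7, 322 and 299.6 TPM with chloride and 280.2, 364 and 302 TPM with propionate. Its testis form Cox6b2 had 1.26, 0.347 and 1.34 TPM with chloride and 0, 0.815 and 1.08 TPM with propionate.

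For subunit 7B, Cox7b had 264, 294 and 241 TPM with chloride and 253, 339.6 and 289 TPM with propionate. The testis form Cox7b2 was listed at 0 in 5 libraries and had 0.060 TPM in propionate 5. For subunit 8, the liver form Cox8a had at least 267 TPM in every library, the heart form Cox8b had 0.0905 TPM in chloride 2 and 0.138 TPM in propionate 4 and was listed at 0 in the others, and the testis form Cox8c was listed at 0 in all 6. The same form was therefore the most abundant in all 6 libraries for subunits 4, 6A, 6B, 7B and 8, and of the other forms Cox6b2 alone passed 1 TPM in any library. The second gene entry of Atp5o, ENSMUSG00000116933, was also listed at 0 throughout, and it overlaps the first. Where a value is listed at 0, low abundance and a failed estimate cannot be told apart.

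Subunit 7A differed from the others in that a pair of its genes was well expressed. Cox7a2, the liver form, had 307, 338 and 309.5 TPM with chloride and 328, 349 and 334 TPM with propionate. Cox7a2l, whose product helps to join complexes III and IV into a supercomplex, had 169.8, 185 and 154 TPM with chloride and 185, 191 and 179 TPM with propionate. The heart form Cox7a1 had 2.50, 3.40 and 0 TPM with chloride and 1.05, 1.35 and 2.09 TPM with propionate, the lowest mean of any tested member. Cox7a2 gave 65.0% ± 1.5 (SD, n = 3) of the summed TPM of the 3 genes with chloride and 64.4% ± 0.532 (SD, n = 3) with propionate, and Cox7a2l gave 34.6% ± 1.16 and 35.3% ± 0.630 (SD, n = 3 each). The shares of the salts overlapped. The plot of alternative forms shows the wide gap between the forms of complex IV and the near-equal c-ring genes.

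**Figure D2:**
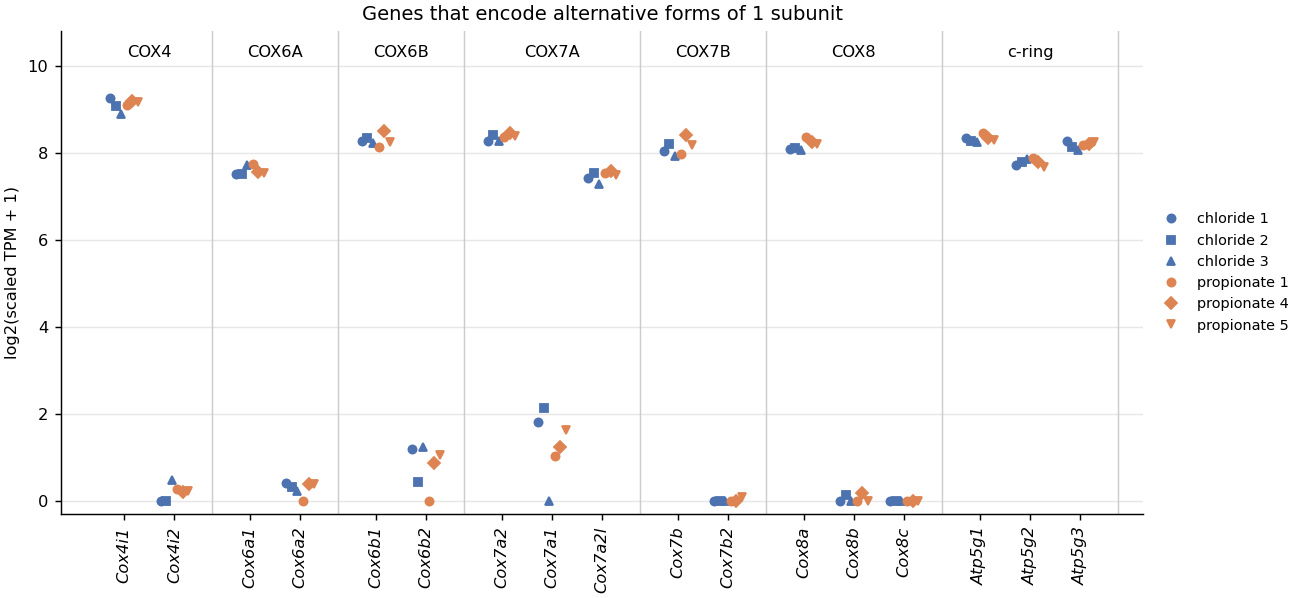
Level, as log2(scaled TPM + 1), of genes that encode alternative forms of 1 subunit. Each point is 1 library, blue for chloride and orange for propionate. In subunits 4, 6A, 6B, 7B and 8 a single gene lies above 7 on this scale and the others below 2, in subunit 7A Cox7a2 and Cox7a2l lie far above Cox7a1, and the 3 c-ring genes lie close together.

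The c-ring was the only set in which all genes were abundant. Atp5g1 had 326, 309 and 305 TPM with chloride and 349, 326 and 311 TPM with propionate. Atp5g3 had 306, 281 and 267 TPM with chloride and 288, 296 and 303 TPM with propionate. Atp5g2 had 209, 221 and 232 TPM with chloride and 235, 222 and 205 TPM with propionate. For these genes alone, the order Atp5g1, Atp5g3, Atp5g2 held in all 6 libraries. With its pseudogenes added, as given below, Atp5g2 lay above Atp5g3 in every library. Atp5g1 gave 38.3% ± 0.399 of the c-ring TPM with chloride and 38.9% ± 1.00 with propionate, Atp5g3 34.7% ± 1.62 and 35.0% ± 1.96, and Atp5g2 27.0% ± 2.0 and 26.1% ± 0.998 (SD, n = 3 each). None of the 3 shares separated the salts. Counting the leading transcript alone gave Atp5g1 51.0% with chloride and 49.5% with propionate.

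Promoter sequences of RefSeq (GRCm38.p6, from 250 bases before to 50 after the gene start) were matched for 33 of the 45 names. Nuclear respiratory genes are known targets of NRF1 and of ETS factors such as GABPA. Both strands were searched. The NRF1 consensus, a palindrome that stands in capitals in the Atp5g2 stretch printed here, was in 4 of the 33 windows (12.1%), those of Atp5g2, Atp5k, Cox6a1 and Uqcrc1, and in 1.07% of the windows of all 27025 genes of the table. The same with 1 open base, which includes the former, was in 8 (24.2%) and in 5.19% of all. The ETS letters CCGGAAG were in 11 (33.3%), among them Cox8a and Uqcrh, and in 9.93% of all. The SP1 letters GGGCGG were in 12 (36.4%) against 38.2% of all, the TATA letters TATAAA in 4 (12.1%) against 15.7%, and the YY1 consensus in 1, that of Atp5j, against 0.995%. A match is a description of the letters, not of binding. The 120 bases before the start are shown for abundant genes with these motifs, Cox6a1 (chr5:115348959-115349078, minus strand), Atp5g2 (chr15:102671048-102671167, minus strand) and Cox7a2 (chr9:79759854-79759973, minus strand), and for the near-silent heart form Cox7a1 (chr7:30184051-30184170, plus strand). Capitals mark matches to any of the motifs in either orientation, and none of them lies in the Cox7a1 stretch. Other low forms did hold such letters in their windows, SP1 in Cox6b2 and Cox7b2 and TATA in Cox7b2 and Cox8b. Some of the matched abundant members held none of the motifs.
Cox6a1: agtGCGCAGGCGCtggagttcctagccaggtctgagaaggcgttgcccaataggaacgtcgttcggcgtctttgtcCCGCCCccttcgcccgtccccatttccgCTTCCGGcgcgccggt
Atp5g2: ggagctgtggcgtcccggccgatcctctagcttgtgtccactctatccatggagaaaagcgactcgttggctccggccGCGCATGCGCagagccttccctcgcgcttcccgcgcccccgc
Cox7a2: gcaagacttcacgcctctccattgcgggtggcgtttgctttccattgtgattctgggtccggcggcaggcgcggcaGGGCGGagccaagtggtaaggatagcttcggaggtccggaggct
Cox7a1: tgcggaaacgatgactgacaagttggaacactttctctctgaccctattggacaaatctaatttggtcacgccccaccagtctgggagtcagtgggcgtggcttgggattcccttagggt

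The study's question was whether propionate changes transcription within 4 h. No member passed an adjusted p of 0.05 in limma, and 1 of 15510 genes did (0.00645%). The members' differences were small and mostly of 1 sign: 37 of the 39 tested members were higher with propionate by sign and 2 lower, where 51.8% of all genes were higher. Their median log2 difference was 0.08, on the log2(TPM + 1) scale used for all differences here, and that of all genes was 0.0055. By complex, the medians were 0.09 in complex III (9 of 9 higher by sign), 0.11 in complex IV (12 of 13) and 0.08 in complex V (16 of 17). With TPM as deposited, without scaling, 16 members were higher and 23 lower by sign, with medians of -0.01 for the members and -0.08 for all genes, and with quantile normalization 24 were higher and 15 lower. Genes with a mean of 60 to 1200 TPM, 2291 in number and including 37 members, had a median of 0.05, with 1708 higher and 583 lower by sign. That comparison was added after the data were seen, and nothing particular to the members is read from it. RNA per cell and the number of cells of each kind cannot be told apart in such libraries.

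Summed over all members, TPM were 11571, 12305 and 11739 in propionate 1, 4 and 5 against 11359, 11554 and 10646 in chloride 1, 2 and 3. Every propionate library lay above every chloride library. As a share of all TPM in the library, before scaling, the members held 1.24%, 1.14% and 1.10% with chloride and 1.12%, 1.19% and 1.14% with propionate, and these shares overlapped. The separation of the sums did not hold without the scaling. The direction was not the same in all members of a complex under other settings. Of the 39 tested members, 14 kept their sign in all of the 20 settings that tested them, the one used here and 19 others.

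Unadjusted p under 0.05 in limma was found for 2 members, both higher with propionate, where 2.16% of all genes were, and for 0 members lower, where 2.98% were. Among the 2291 genes with a mean of 60 to 1200 TPM, it was found for 89 higher and 16 lower. Cox8a, the liver form of subunit 8, had 272, 278 and 267 TPM in chloride 1, 2 and 3 and 330.1, 304 and 294 TPM in propionate 1, 4 and 5. All propionate libraries lay above all chloride libraries. Its log2 difference was 0.18 (SE 0.06, 95% interval 0.03 to 0.33), with an unadjusted p of 0.022 and an adjusted p of 0.914 in limma. Uqcrh, the hinge protein that eases the contact of cytochrome c1 with cytochrome c, had 289, 301 and 276 TPM with chloride and 308, 324 and 323 TPM with propionate, again without overlap. Its log2 difference was 0.14 (SE 0.06), with an unadjusted p of 0.048 and an adjusted p of 0.914 in limma. Without chloride 3 and propionate 1 the differences were 0.12 for Cox8a and 0.13 for Uqcrh, and with TPM as deposited 0.09 and 0.04.

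The groups did not overlap, with propionate higher, in 5 members, where this held for 5.25% of all genes. No member had all propionate libraries lower, where 6.48% of all genes did. Among the 2291 genes with a mean of 60 to 1200 TPM, 215 were higher without overlap and 43 lower. Besides Cox8a and Uqcrh, the 5 members were Cox6c2, Atp5b and Atp5o, which encodes the stalk subunit OSCP. Cox6c2 had 19.3, 19.6 and 16.4 TPM with chloride and 26.8, 19.7 and 20.6 TPM with propionate, a log2 difference of 0.26 (SE 0.13), which was 0.13 without propionate 1, 0.18 without chloride 3 and 0.05 without both. Atp5o had 358, 354 and 356 TPM with chloride and 386, 376 and 366 TPM with propionate, a log2 difference of 0.08, which was -0.02 with TPM as deposited. Atp5b differed by 0.06, and by -0.04 with TPM as deposited.

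The other members with the smallest p of their complex were Uqcr10 in complex III and Atp5j2 and Atp5e in complex V. Uqcr10, a small subunit, had 296, 314 and 274 TPM with chloride and 334, 309 and 323 TPM with propionate, a log2 difference of 0.13 (SE 0.07). Atp5j2, a membrane subunit, had 161, 166 and 164 TPM with chloride and 184, 180.0 and 166 TPM with propionate, a log2 difference of 0.11 (SE 0.06). In both genes 1 propionate library lay within the chloride values. Atp5e, the F1 epsilon subunit gene, had 272, 267 and 240.5 TPM with chloride and 300.3, 266 and 287 TPM with propionate, a log2 difference of 0.13 (SE 0.07). The 2 members lower by sign were Cox7a1, with a difference of -0.02 (SE 0.53), and Atp5g2, with -0.0022 (SE 0.07). The adjusted p of these 5 genes lay between 0.914 and 0.998 in limma. Over the 37 members above 50 TPM, the 95% intervals, each for its own gene, reached no further than 0.848-fold down and 1.38-fold up. In data simulated over all 15510 tested genes, with 200 changed, limma recovered 0% of genes changed 1.2-fold and 52.2% of genes changed 1.5-fold. Recovery among the members alone was not tested.

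**Figure D3:**
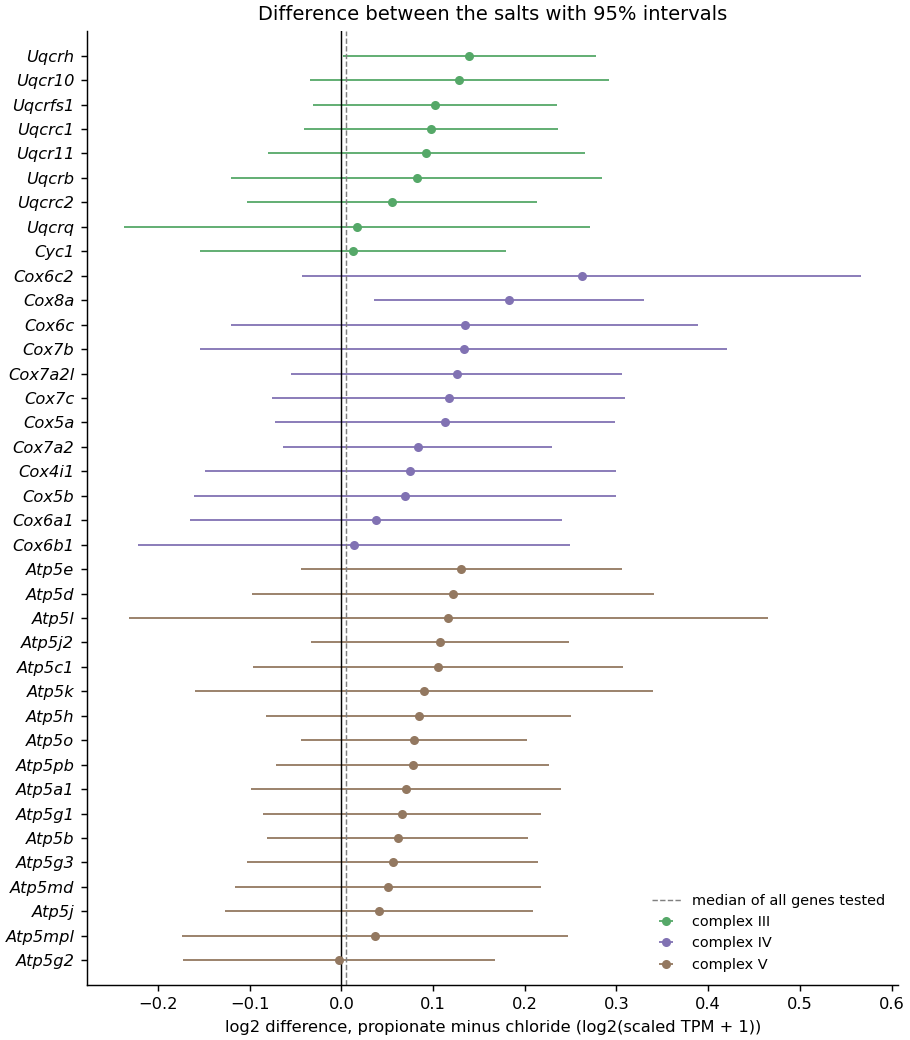
Log2 difference between propionate and chloride for the 38 tested members with a mean over 10 TPM, by complex. Points are limma estimates on log2(scaled TPM + 1), bars their 95% intervals from 3 libraries per salt, and the dashed line the median of all genes tested, 0.0055. Cox8a at 0.18 and Uqcrh at 0.14 are the members whose interval lies above 0, and the scale of all points depends on the scaling between libraries.

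The spread between libraries was shared by many members. Chloride 3 was the lowest library for 23 of the 39 tested members and the highest for 0, and 3 members lay above their own mean over the 6 libraries in it. Propionate 4 was the highest for 19 and propionate 1 for 15. The median deviation of the members from their own mean was -0.05 in chloride 1, near 0 in chloride 2 and -0.12 in chloride 3, on the log2 scale. It was 0.0080 in propionate 1, 0.08 in propionate 4 and 0.03 in propionate 5. Without chloride 3, 33 members were higher by sign and 6 lower, and without chloride 3 and propionate 1, 34 were higher and 5 lower, with medians of 0.08, 0.06 and 0.05 in complexes III, IV and V.

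Which members were high in a propionate library went with the GC content of their leading transcript. Over the 37 members above 50 TPM, whose GC ran from 42.0% to 61.1%, Pearson's r between GC and the deviation was 0.60 in propionate 1 and -0.63 in propionate 4. In the other libraries it was 0.07, -0.41 and 0.19 for chloride 1, 2 and 3 and -0.20 for propionate 5. Cox7b, with 42.0% GC, was 0.29 above its own mean in propionate 4 and 0.14 below it in propionate 1, while Atp5d, with 61.1% GC, was 0.24 above its mean in propionate 1 and 0.02 below it in propionate 4. The members share each library, so these are descriptions over genes of single libraries. The relation was not particular to the members: over 1997 protein-coding genes with 60 to 1200 TPM the rank correlation was 0.63 in propionate 1 and -0.38 in propionate 4, and over the members 0.59 and -0.69. The part of GC in the difference between the salts was not tested.

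**Figure D4:**
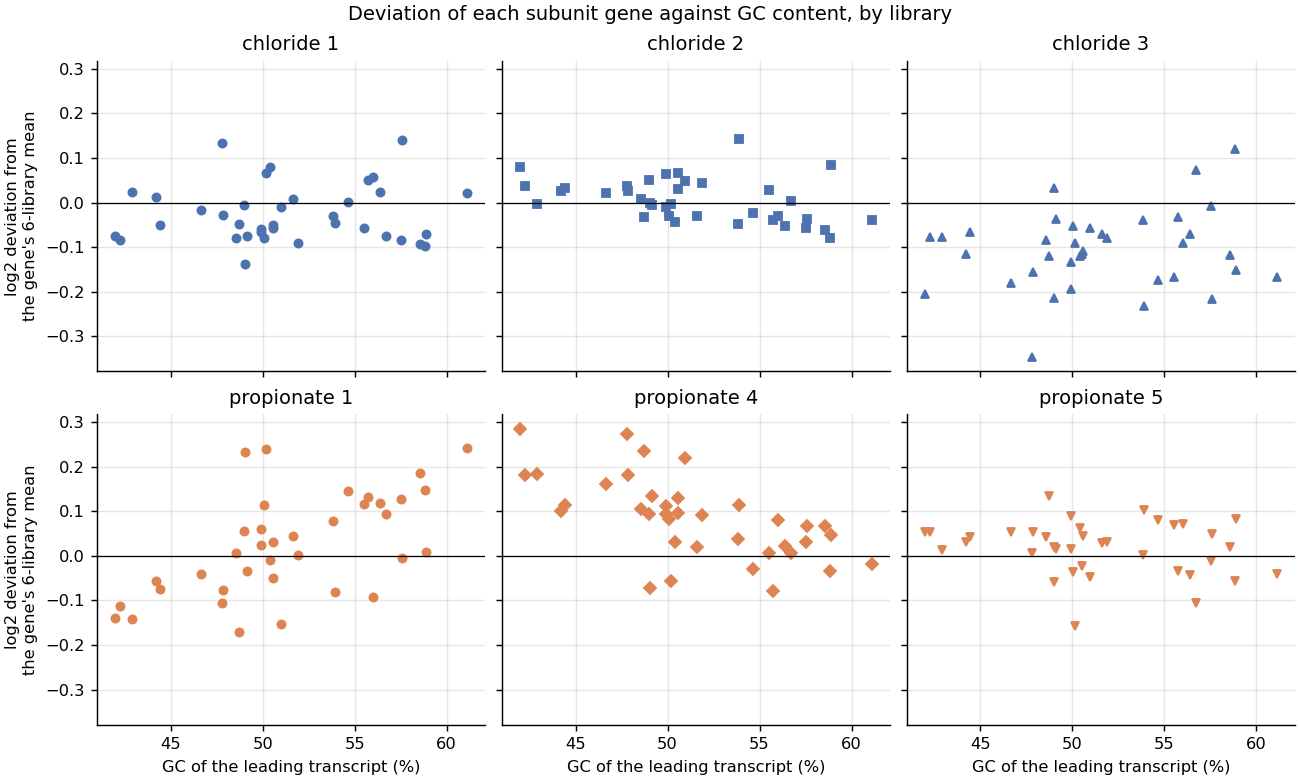
Deviation of each of the 37 members above 50 TPM from its own mean over the 6 libraries (log2 scale) against the GC content of its leading transcript (%), with 1 panel for each library. In propionate 1 members with higher GC lie higher, in propionate 4 lower, and in chloride 3 nearly all lie below 0.

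Copies elsewhere in the genome limit how exactly some members can be counted. Genes were counted as pseudogenes by their class or by -ps in the name. Of the 39 tested members, 26 had a leading transcript that shares at least 31 consecutive bases with a pseudogene. Among the 13 with no such stretch were Atp5a1, Atp5b, Cox4i1, Cox8a and Cyc1. In 4 tested members the pseudogenes held over 10% of the joint TPM. All stretches of 31 bases of the leading Atp5g2 transcript recur in Gm10175 and in Gm10231, which had mean levels of 59.6 and 61.8 TPM. Atp5g2 together with its pseudogenes had 327, 349 and 341 TPM with chloride and 361, 350.1 and 327 TPM with propionate, a log2 difference of 0.03. In every library that sum lay above Atp5g3, which shares no such stretch with a pseudogene. For Atp5g1 the share was 67.3%, mostly with Gm10039 at 77.3 TPM. For Atp5l, a membrane subunit g gene, it was 69.7%, with 18 pseudogenes, led by Gm10221 at 107 TPM. Atp5l alone had 323, 302 and 231 TPM with chloride and 274, 356 and 296 TPM with propionate, the widest spread of the 37 members above 50 TPM at 14.3%, and with its pseudogenes 451, 439 and 346 TPM and 443, 495 and 435 TPM. Cox5b shared 32.1% with Cox5b-ps, at 42.6 TPM, which counts as a pseudogene by name but is classed as protein-coding in GENCODE M21. Levels of these 4 genes, and the order of the c-ring genes, are therefore uncertain. Of Cox6c2, 61.7% of the stretches were shared with other genes, so reads of Cox6c and Cox6c2 cannot be told apart there. The joint sums were chosen after the shared stretches were seen.

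Transcript models of the members numbered 217, with 196 reference models and 21 assembled by StringTie. Of the 135 that were tested, 66 were higher and 69 lower by sign, where 47.5% of all 35755 transcripts were higher. None passed an adjusted p of 0.05 in limma, where 0.0364% of all transcripts did. Unadjusted p was under 0.05 for 4 higher and 8 lower models, where 1.99% and 2.59% of all transcripts were. The smallest p belonged to ENSMUST00000138428, a minor model of Uqcr11, with 3.50, 2.87 and 5.95 TPM in chloride 1, 2 and 3 and listed at 0 in all propionate libraries (limma, adjusted p = 0.227). It held at most 2.06% of the TPM of Uqcr11 in any library. The next smallest was that of ENSMUST00000146103 of Atp5j, with 7.40, 4.49 and 11.8 TPM with chloride and 1.79, 1.29 and 3.40 TPM with propionate (limma, adjusted p = 0.862). It was followed by an assembled model of Cox7b with a start further upstream, with 47.8, 53.2 and 23.7 TPM with chloride and 1.07, 2.31 and 20.5 TPM with propionate (limma, adjusted p = 0.862). The leading Cox7b model held 81.6%, 81.5% and 89.1% of the gene with chloride and 99.1%, 99.0% and 92.5% with propionate.

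The division of a gene's TPM between its models varied between libraries of the same salt. In 19 of 39 tested genes the leading model held over 90% in every library. In 7 genes its share ranged over more than 30 percentage points. For Atp5a1, ENSMUST00000026495 held 25.2% in chloride 1 and 26.8% in propionate 5 and 98.5% to 99.7% in the other 4 libraries, and ENSMUST00000114748 took up the rest, while the sum of the gene varied by 5.52%. For Atp5c1, the leading model held 55.1%, 93.1% and 89.8% with chloride and 57.9%, 57.8% and 90.4% with propionate. For Atp5g2 the leading model held 30.9% in propionate 4 and 87.7% in propionate 1, and for Cox4i1 44.2% in chloride 2 and 84.8% in chloride 1. The sums over models were used for the comparison of the salts.

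**Figure D5:**
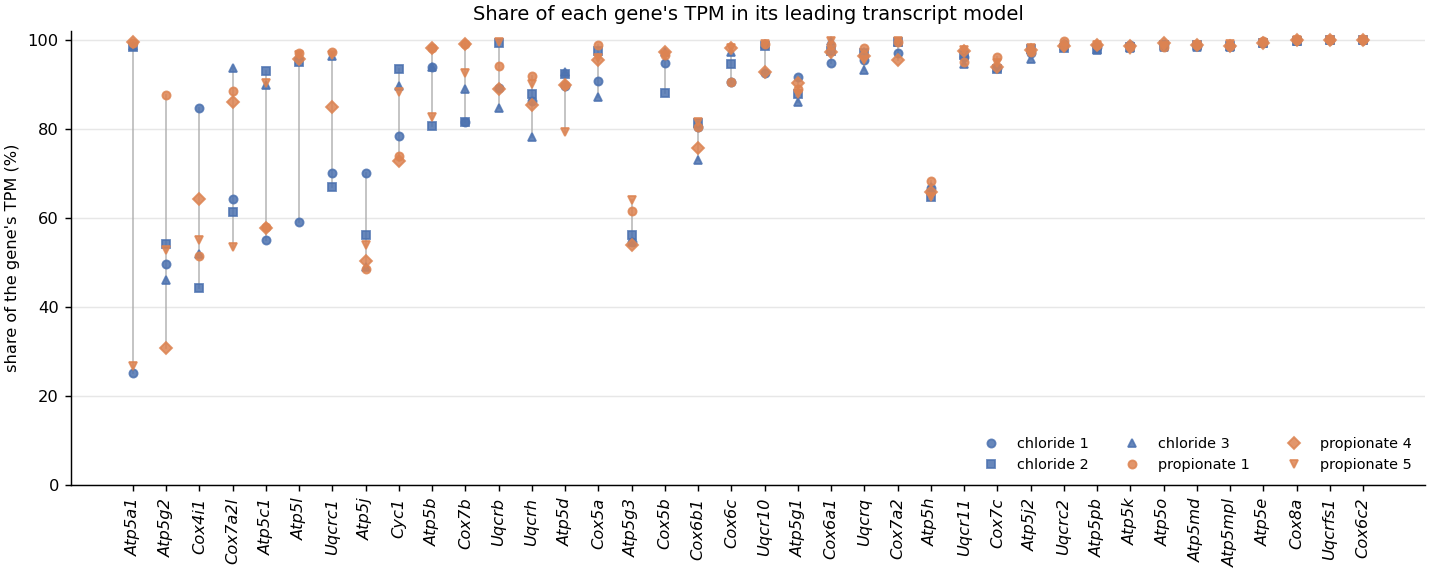
Share (%) of each gene's TPM that lies in its leading transcript model, for the 38 tested members with a mean over 10 TPM, ordered by the range over libraries. Each point is 1 library, blue for chloride and orange for propionate, and grey lines join the lowest and the highest. Atp5a1 ranges from 25.2% to 99.7% with chloride 1 and propionate 5 at the low end.

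The other genes of these pathways were taken by list. The 6 subunits of complexes III, IV and V that are encoded in mitochondrial DNA were split into 2 higher and 4 lower by sign, around a median of -0.0044 on the log2 scale. Of these, mt-Atp6 averaged 83.9 TPM with chloride and 90.4 TPM with propionate, and mt-Co2, an electron-accepting subunit of complex IV, 792 and 775 TPM. Among 6 assembly factors of complex III, 2 were higher and 4 lower by sign (median -0.04), with Uqcc2 at 238 and 258 TPM and Uqcc3 at 14.1 and 12.9 TPM. Of 27 tested assembly factors and further subunits of complex IV, 20 were higher and 7 lower (median 0.05). Higd2a, which aids assembly, had 16.5 TPM with chloride and 19.96 TPM with propionate, and Cox17, a copper chaperone, 108 and 120.2 TPM. Of 7 ATP synthase assembly factors and its inhibitor, 6 were higher (median 0.08), and Atpaf1, which helps to build F1, had 8.74 and 6.95 TPM while Atpaf2 had 27.0 and 29.7 TPM.

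The electron carriers, the regulators and complexes I and II make up the remaining lists. Of 8 genes of cytochrome c and of inner membrane organisation, 7 were higher by sign (median 0.03), with Chchd3 at 170.0 and 178 TPM and Hccs, which attaches haem to cytochrome c, at 34.8 and 36.5 TPM. Of 12 tested regulators of nuclear respiratory genes or of mitochondrial gene expression, 8 were higher (median 0.02). Polrmt, the mitochondrial RNA polymerase, had 15.6 and 14.2 TPM, and Tfb1m, also of the mitochondrial part of that list, 10.03 and 9.26 TPM. The coactivator Ppargc1a averaged 0.0023 TPM with chloride and was not tested. Of 36 complex I subunits, 32 were higher and 4 lower (median 0.09), with Ndufv3 at 52.7 and 58.3 TPM and Ndufb7 at 141 and 164 TPM. The lowest of them was Ndufb6, with 8.91, 15.9 and 103 TPM in chloride 1, 2 and 3 and 9.46, 10.6 and 8.60 TPM with propionate, a log2 difference of -1.30 in which chloride 3 alone stood far above the rest. Of 4 complex II subunits 3 were higher (median 0.08), with Sdhd at 129 and 139 TPM and Sdhb at 172 and 181 TPM. No gene of these lists passed an adjusted p of 0.05 in limma, where 0.00645% of all genes did, and 3 of the 106 tested (2.83%) had an unadjusted p under 0.05, Higd2a, Ndufv3 and Ndufb7, all higher with propionate, where 2.16% of all genes were. The medians of these lists turn on the same scaling as those of the members.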

How the data were processed

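RNA of GL261 cells was measured in 6 libraries, 3 for each salt, at 4 h. Libraries were made with the TruSeq Stranded Total RNA Gold kit, per the labels. HISAT2, StringTie, fastp and bcl2fastq and the build mm10 are listed in the submitters' processing notes, without versions or roles. The deposited files hold, per the file headers, coverage, FPKM and TPM of each transcript model, estimated by StringTie 2.1.1 in each library on a common model set, with no counts. These other values in the deposited attribute text were read as TPM. The settings of the aligner and for strand are not given in the sources.

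The files held 157296 models, of which 14805 were assembled. Assembled models were joined to the reference gene of the same locus and strand with most shared exon bases (11690). Gene names, classes and sequences came from GENCODE M21, of the same build, where 1207 reference models were not found. Genes with no model of 200 nt or more were left out, TPM were added up over the models of a gene, and each library was scaled by the median ratio to the geometric mean of the 6. The 15510 genes and 35755 transcripts that averaged 1 TPM or more were compared on log2(TPM + 1), two-sided, by limma 3.58.1 under R 4.3.3, using lmFit and eBayes with trend. Benjamini-Hochberg adjustment was over all of them, with 0.05 as threshold. Changes of low genes are understated on that scale. Stretches of 31 bases were compared between the leading transcripts of M21 and all other transcripts, and some M21 versions differ in length from the files' models. Python 3.11.15, pandas 2.3.3, numpy 2.4.6 and matplotlib 3.10.9 were used. On simulated data the gene test was checked with 200 of 15510 genes changed, where it recovered 87.0% at 2-fold and 97.6% at 4-fold. Depth was 9.15 to 11.3 Gb of counted bases per library, read from coverage and FPKM.

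Members, gene lists and tests were chosen with earlier results of these data known. Named were all forms of a subunit encoded by several genes, the highest and lowest of a complex, the 2 members with the smallest p in each direction of a complex, the core subunits, and the 2 smallest p of each list. The members whose groups do not overlap and the models with uneven shares were chosen after their values were seen. Alternatives were other scalings, pseudocounts, filters, weights and tools, a term for the pair chloride 3 and propionate 1, and leaving out libraries.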

Additional observations from a re-analysis of the deposited data

How the results depend on the processing

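No member passed an adjusted p of 0.05 in limma under any of the 19 alternative settings of the gene test, and the lowest adjusted p of a member was 0.269, with library weights. Those weights ran from 0.276 in propionate 1 to 7.01 in propionate 5, with chloride 1 next at 1.26. On the propionate side that setting therefore rests mostly on propionate 5. The median of the members exceeded that of all genes in all 20 settings, by 0.02 to 0.12. All genes are an unlike background, with a median level of 12.6 TPM against 290 TPM for the members. In the main setting, genes with a mean of 60 to 1200 TPM had a median difference of 0.05, and the members 0.08. No paired analysis was possible because the salts share only replicate number 1 in the titles. A limma term for the pair chloride 3 and propionate 1, set by their coverage and not by numbers, left 1 gene higher and 0 lower past the threshold, with a lowest adjusted p of a member of 0.576. Forms under 1 TPM rest on few reads, and in simulated data limma recovered 0% of genes changed 1.2-fold.

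Counts of genes past the threshold were low throughout. Genes higher numbered 5 and genes lower 1 in the 4 libraries without chloride 3 and propionate 1, and genes higher numbered 2 with library weights, 2 among genes averaging 5 TPM or more, 0 without a filter, 0 with voom on estimated reads and 1 to 4 when each library was left out. Unadjusted p was under 0.05 for 335 genes higher and 462 lower in the limma test of the report, 575 and 849 without a filter and 272 and 556 with voom. For transcripts, 8 were higher and 5 lower, and among those averaging 5 TPM or more 3 and 2, while leaving out each library gave 0 to 20 higher and 1 to 6 lower.

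Scaling changed the signs. With TPM as deposited, 16 members were higher and 23 lower, with medians of -0.0042, 0.016 and -0.019 in complexes III, IV and V. With mitochondrial, ribosomal and short RNA left out, 16 were higher and 23 lower, with medians of -0.0036, 0.017 and -0.018. With quantile normalization, 24 were higher and 15 lower, with medians of 0.031, 0.036 and 0.0019. Members lower numbered 5 in the 4 libraries, 6 with library weights, 1 among those averaging 5 TPM or more, 4 without a filter, 1 with a pseudocount of 0.1, 1 with voom and 1 to 6 when each library was left out. Without members that share 31 bases with pseudogenes, the median of complex III was 0.036.

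Of the 21 members whose difference was followed, 10 kept their direction in every setting, Uqcrh, Uqcr10, Uqcrfs1, Uqcrc1, Cox6c, Cox6c2, Cox8a, Atp5c1, Atp5e and Atp5j2. The others turned as follows, in the order TPM as deposited, RNA classes left out and, where a value follows, quantile normalization: Uqcr11 -0.0042 and -0.0036, Uqcrq -0.079, -0.078 and -0.022, Cyc1 -0.084, -0.083 and -0.030, Uqcrc2 -0.041 and -0.041, Cox4i1 -0.022, -0.021 and -0.0031, Atp5a1 -0.027, -0.026 and -0.013, Atp5b -0.036 and -0.035, and Atp5o -0.018, -0.017 and -0.0063. In the 4 libraries, Uqcrq was at -0.14, Cyc1 at -0.062 and Atp5d at -0.022, and with library weights Uqcrq was at -0.15 and Cyc1 at -0.035. Cox7a1 was at 0.67 with a pseudocount of 0.1, 0.021 with quantile normalization and 0.95 with voom. Atp5g2 with its pseudogenes, a setting chosen after seeing the data, was at 0.028. Leaving out each library gave -0.099 to 0.10 for Uqcrq, -0.050 to 0.055 for Cyc1, -0.014 to 0.16 for Cox4i1, -0.67 to 0.40 for Cox7a1 and -0.050 to 0.050 for Atp5g2. The cause of these changes was not tested. Leaving out members that share 31 bases with pseudogenes keeps the sets of subunits 4 and 8 whole, with the same shares, and leaves at most 1 gene in each of the other sets, and scaling leaves such shares as they are.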
